A study of Mus musculus with 12 samples.

Results

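The 10 genes described here encode the MYB, RFX and CREM families of transcription factors: Myb, Mybl1 and Mybl2; Rfx1, Rfx2, Rfx3 and Rfx4; and Crem, Creb1 and Atf1. They were followed through prophase I of meiosis in mouse spermatocytes, as 10 of the 21938 protein-coding genes of the GENCODE M21 annotation outside the mitochondrial genome. Nascent transcription was mapped by leChRO-seq, a run-on assay in which engaged RNA polymerases on isolated chromatin extend their transcripts by labelled nucleotides that are then sequenced. Cells of adult wild-type (WT) mice were enriched by STAPUT, which sorts cells by sedimentation, and 4 libraries were made from each of 3 fractions, leptonema/zygonema, pachynema and diplonema. The labels name no treatment, the study names C57Bl/6J or DBA/2J as its backgrounds without saying which was used here, and its methods describe the fractions as enriched but not pure. The authors merged the 4 libraries of a fraction and called peaks once, with dREG, a tool that recognises the pattern of paired run-on signal at sites of transcription initiation. Each fraction is therefore 1 list of peaks with no spread between replicates, so no difference between substages below could be tested.

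The list for leptonema/zygonema held 71107 peaks, that for pachynema 68352 and that for diplonema 38603. Each peak has a dREG score, which ran from 0.246 to 1.632, from 0.239 to 1.578 and from 0.231 to 1.425 in that order of substages. The score has no fixed scale and is not made comparable between lists, so scores are compared only within a list. A gene's percentile is the percentage of protein-coding genes with a promoter peak in the same list whose highest promoter score was lower. A promoter peak is one whose nearest edge lay under 1000 bp from any annotated transcription start site (TSS) of the gene, and a gene-body peak is one inside the gene and at least that far from every annotated TSS of any gene. The lists carry no read counts, so the number of reads behind a peak was not analysed here. The study's text gives a range of mapped reads across assays and a normalization factor for each run-on library. By its formula the factor is library size times transcriptional activity relative to leptonema/zygonema. For leptonema/zygonema it therefore stands for library size, while for the other fractions size and activity are combined. The text does not state how many reads each merged list rests on, and depth was not compared between lists here. A gene without a peak is not shown to be silent.

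MYB proteins bind DNA through tandem MYB repeats. A-MYB, made from Mybl1, activates genes of meiosis and spermiogenesis from pachynema on, B-MYB from Mybl2 drives genes of the cell division cycle with the MuvB complex, and c-MYB from Myb is best known from blood progenitors. RFX proteins bind the X-box and are known as regulators of cilium genes, and in the testis RFX2 is needed for spermatids to form flagella. CREM, CREB1 and ATF1 form dimers on the cAMP response element, and CREM isoforms from alternative promoters and splicing include both activators and repressors, of which the activators are required for spermatid gene expression.

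Promoter peaks were called for 9 of the 10 genes in leptonema/zygonema, 9 in pachynema but 8 in diplonema. The share of all protein-coding genes with a promoter peak was 60.2%, 60.5% and 51.6%. Mybl1, Rfx1, Rfx2, Rfx3, Rfx4, Crem, Creb1 and Atf1 had one in all 3 lists, as did 49.5% of all genes. Mybl2 had one in leptonema/zygonema and pachynema but not in diplonema, a pattern found in 7.51% of all genes. Myb had none in any list, like 35.9% of all genes.

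The members with a promoter peak carried 39 such peaks in leptonema/zygonema, and 40 and 36 in pachynema and diplonema. The median per gene was 4, 5 and 4 peaks, against a median of 2 in each list over all genes with a promoter peak. Crem contributed 10, 9 and 9 of them, and its annotation has 26 distinct TSSs, more than any other member. Their highest scores had a median of 1.14, 1.21 and 0.95, beside 1.05, 1.03 and 0.835 over all genes with a promoter peak. Of the 36 promoter peaks in diplonema, 94.4% overlapped a peak of the pachynema list by at least 1 bp, beside 95.7% of the promoter peaks of all genes, and 91.7% a peak of the leptonema/zygonema list, beside 90.4%. In the other direction 82.1% of the 39 leptonema/zygonema peaks and 90% of the 40 pachynema peaks overlapped a diplonema peak, beside 70.1% and 72.5% over all genes.

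**Figure D1:**
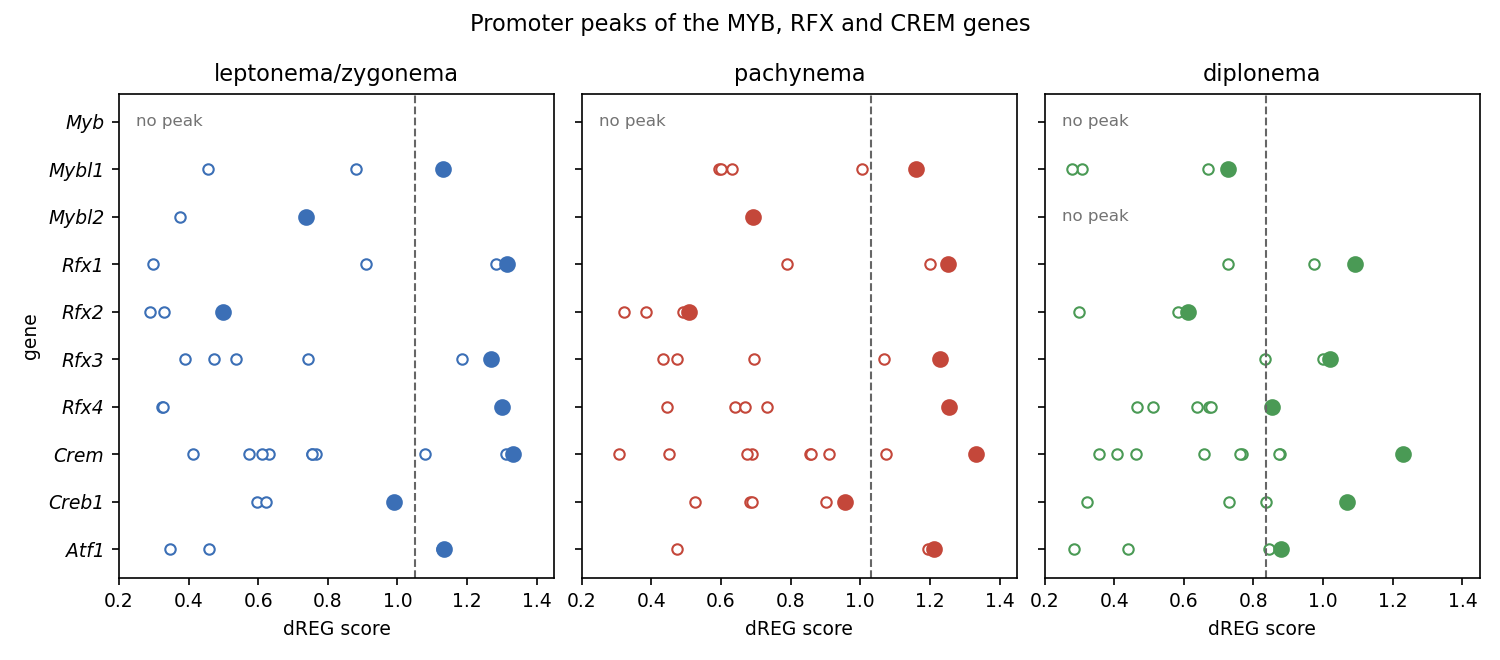
dREG score (x axis, no unit) of every promoter peak of each gene (y axis), with 1 panel per substage. Filled points mark the highest-scoring peak of a gene, open points its other promoter peaks, and the dashed line the median of the highest promoter score over all protein-coding genes with one (1.05, 1.03 and 0.835). Crem holds the highest point of the 10 genes in each panel, Myb has none, and Mybl2 has none in diplonema.

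Within the MYB family the 3 paralogues differed in whether a promoter was called and in where it stood in its list. Mybl1, the A-MYB gene, lies at chr1:9667415-9700209 on the minus strand, and its promoter peaks formed a group of 3 in leptonema/zygonema, 5 in pachynema, with 4 in diplonema. The highest scored 1.13 in leptonema/zygonema, 1.159 in pachynema, then 0.727 in diplonema. These scores placed Mybl1 at percentile 62.1, 69.6 and 38.2 among genes with a promoter peak. Over all protein-coding genes, with those without a peak counted as lower, it stood at percentile 77.2, 81.6 and 68.1. The change of place from leptonema/zygonema to diplonema was -23.9 percentile points. A fall of at least 20 points over that interval was seen in 25.7% of the genes with a promoter peak in all 3 lists, and a rise of that size in 15.3%. The mark of 20 points was chosen after the values were seen. Among the members, Mybl1 and Rfx4 were past it downwards and Creb1 upwards. Which genes pass depends on the genes ranked: Mybl1 changed by -18.9 points among genes with a promoter peak in all 3 lists, by -18.5 with lists of equal length, by -17.6 among all peaks of the list and by -9.1 over all protein-coding genes, and Rfx4 by -19.5 over all protein-coding genes and by -17.2 among all peaks of the list. Creb1 changed by 13.3 among all peaks of the list, and Rfx2 by 20.7 among genes with a promoter peak in all 3 lists. With TSSs of protein-coding transcripts only, the direction at Rfx4 turned. Its highest peak then stood at percentile 8.94 of all peaks in leptonema/zygonema and 79.8 in diplonema.

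The peak that led at Mybl1 also changed place within the promoter. In leptonema/zygonema and pachynema the peak over the annotated gene start scored highest, at 1.13 and 1.159, and the peak about 0.8 kb into the gene came next, at 0.881 and 1.004. In diplonema the downstream peak scored 0.727 and the one over the gene start 0.67. The gene also has an annotated protein-coding start at chr1:9699654. The downstream peak covered this start in leptonema/zygonema and diplonema and lay 44 bp from it in pachynema. No peak was called at the Mybl1 starts annotated 16.8 and 21.6 kb into the gene, nor anywhere else in its body.

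Mybl2, the B-MYB gene, begins at chr2:163054687 on the plus strand. Its start lay inside a peak that scored 0.736 in leptonema/zygonema and 0.691 in pachynema, at percentile 22.9 and 22.3. A second, weaker peak 34 bp downstream of the start scored 0.375 in leptonema/zygonema only. In diplonema the nearest peak was 2.59 kb from the gene, beyond its 3′ end, with a score of 0.881. In leptonema/zygonema and pachynema, Mybl2 was at percentile 53.6 and 53 over all protein-coding genes, and at 12 and 11.6 with lists of equal length. No peak lay at the 3 other promoter groups of the gene.

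Myb, the c-MYB gene at chr10:21124935-21160984 on the minus strand, had no peak at any of its 6 annotated TSSs and none in its body. The nearest peak was 21.3 kb away in leptonema/zygonema, 21.4 kb away in pachynema and 91 kb away in diplonema. The 3 blood cell markers examined beside it, Ptprc, Cd68 and Hbb-bt, had no promoter peak in any list either.

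**Figure D2:**
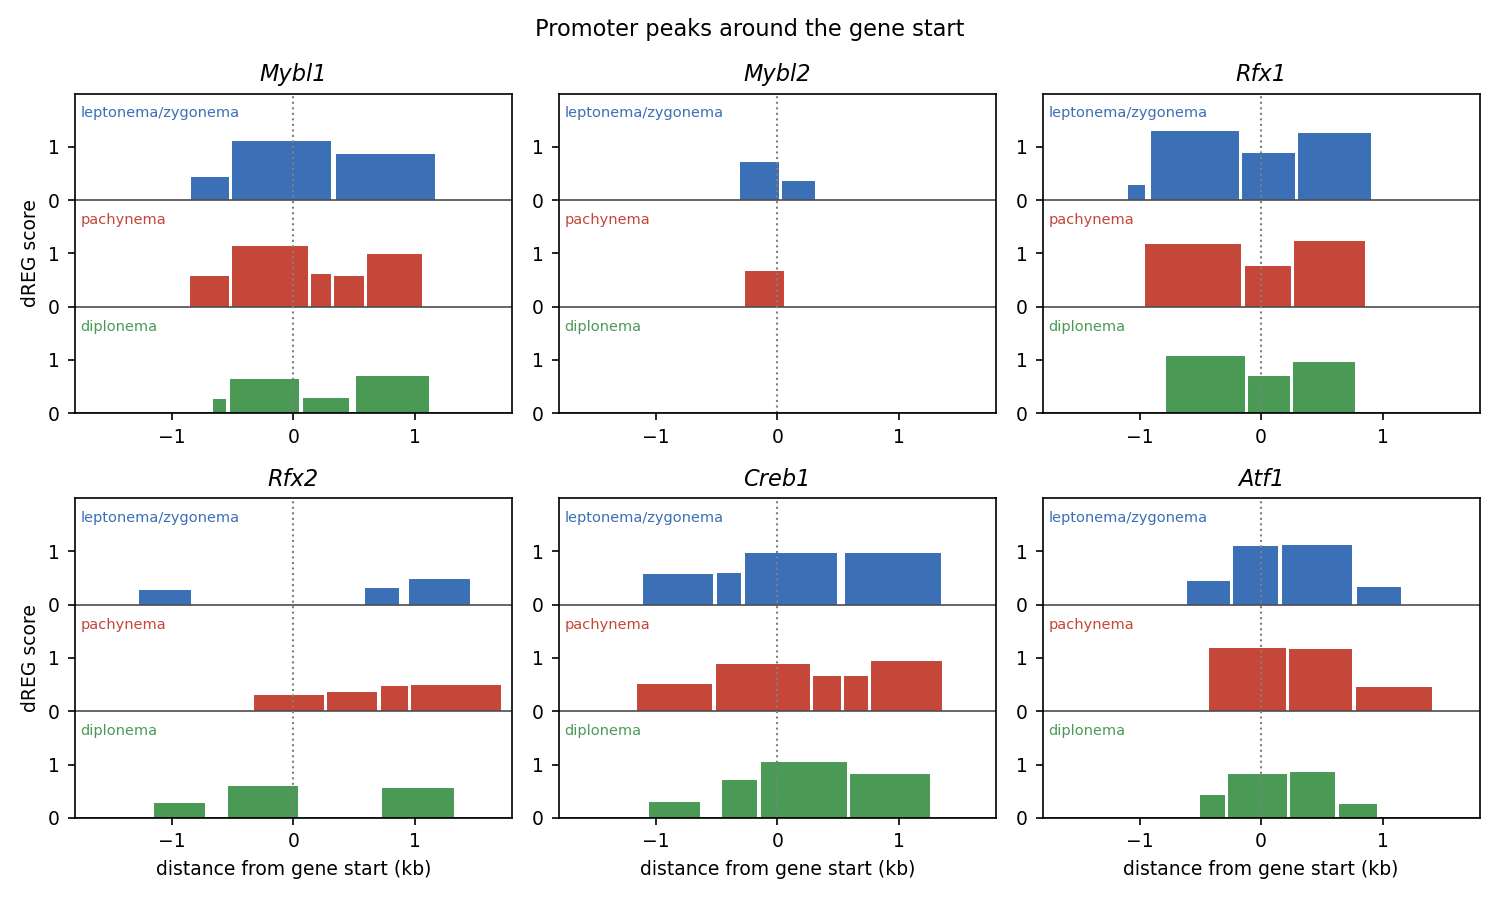
Promoter peaks of 6 genes by distance from the annotated start of the gene (x axis, kb, positive into the gene) and dREG score (y axis, 1 row per substage, each from 0). Each bar spans a peak, and the dotted line is the gene start. At Mybl1 the highest bar is over the start in leptonema/zygonema and pachynema (1.13 and 1.159) and downstream in diplonema (0.727), and at Rfx1 the neighbours on either side of the bar over the start stand above it in every row.

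Of the RFX genes, Rfx1 and Rfx3 stood above most genes with a promoter peak in every list, Rfx2 stood below most of them, and Rfx4 changed its leading promoter. Rfx1, at chr8:84066834-84096992 on the plus strand, had its highest promoter score at 1.316, 1.252 and 1.092, which is percentile 93, 87.2 and 83. Rfx3, at chr19:27761721-28011166 on the minus strand, scored 1.268, 1.23 and 1.021, at percentile 86.8, 83.1 and 73.6. Both were lower in the order of genes at diplonema, by -10 and -13.2 points from leptonema/zygonema. The median absolute change over all genes was 16.1 points, so neither moved more than a typical gene.

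At Rfx1 the peak that covered the annotated start was not the highest. It scored 0.91, 0.789 and 0.726 in the order of substages. The median highest score over genes with a promoter peak was 1.05, 1.03 and 0.835. The place of Rfx1 above most genes in this ranking therefore rests on the peaks beside its start. That median takes the highest promoter peak of each gene, whether or not it covers a start. Rfx1 was not ranked against other genes by peaks over the start alone. The upstream neighbour scored 1.316, 1.199 and 1.092, and the downstream neighbour 1.284, 1.252 and 0.973. These peaks also lie under 1000 bp from TSSs of C330011M18Rik, and the upstream ones from Gm10643, so that initiation at Rfx1 and at these genes cannot be told apart by position. A further peak in leptonema/zygonema, 954 bp from the start and with a score of 0.299, fell just inside the distance limit.

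At Rfx3 the leading peak lay upstream of the start in leptonema/zygonema (1.268) and pachynema (1.23), next to a peak over the start of 1.185 and 1.067. In diplonema the 2 were at 0.999 and 1.021. The number of promoter peaks was 6, 5 and 3 in the order of substages. Just outside the limit lay peaks 1195 bp away in leptonema/zygonema (0.413) and 1095 bp away in pachynema (0.453).

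Rfx1 and Rfx3 were the members whose window around the TSS held a match to the RFX sequences searched, GTTGCCA or GTTGCTA on either strand. Such a match was present in 8.6% of the 13272 genes with a pachynema promoter peak, in windows from 250 bp before to 50 bp after the TSS. The windows lie at chr8:84066586-84066885 (plus strand) and chr19:28011117-28011416 (minus strand) on mm10 and are written 5′ to 3′ with the match in capitals. It begins 7 bases before the Rfx1 TSS and 23 bases after the Rfx3 TSS, and reads TAGCAAC, the reverse complement of GTTGCTA, in each. Around the centre of the highest pachynema peak, where 8.97% of genes had a match, none of the 9 members did, so the match depends on which window is read.
Rfx1 TSS window: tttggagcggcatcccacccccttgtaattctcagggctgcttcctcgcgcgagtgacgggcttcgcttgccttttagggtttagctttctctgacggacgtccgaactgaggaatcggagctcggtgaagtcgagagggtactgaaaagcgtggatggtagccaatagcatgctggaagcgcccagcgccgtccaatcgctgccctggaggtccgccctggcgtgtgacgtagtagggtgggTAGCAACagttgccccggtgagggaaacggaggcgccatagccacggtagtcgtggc
Rfx3 TSS window: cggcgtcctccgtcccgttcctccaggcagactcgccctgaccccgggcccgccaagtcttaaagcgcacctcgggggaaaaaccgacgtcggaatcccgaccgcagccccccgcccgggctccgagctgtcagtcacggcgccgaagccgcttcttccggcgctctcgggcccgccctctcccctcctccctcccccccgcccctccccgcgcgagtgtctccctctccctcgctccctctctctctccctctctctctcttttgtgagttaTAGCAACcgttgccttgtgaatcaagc

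Rfx2, at chr17:56775897-56831013 on the minus strand, stood lowest of the members with a promoter peak in leptonema/zygonema and pachynema and also lowest of the 8 in diplonema. Its highest promoter score was 0.498, 0.508 and 0.612, at percentile 9.88, 11.4 and 27.2 among genes with a promoter peak and 45.8, 46.4 and 62.4 over all protein-coding genes. Among genes with a promoter peak in all 3 lists Rfx2 stood at percentile 3.97, 2.98 and 24.7. With an edge under 500 bp the pachynema score was 0.386, at percentile 5.29. With the peak centre under 1000 bp the leptonema/zygonema score was 0.33. In leptonema/zygonema no peak covered an annotated Rfx2 start, and the nearest edge was 509 bp away. In pachynema a peak of 0.321 covered it, and in diplonema a peak of 0.612 covered it and was the highest of the gene. The call in leptonema/zygonema was lost when a score of at least 0.5, an edge under 500 bp or a peak over the TSS was required, and the calls in leptonema/zygonema and pachynema were lost when each list was cut to the 38603 highest-scoring peaks. Its place was 17.3 points higher in diplonema than in leptonema/zygonema, and 20.7 points higher when only genes with a promoter peak in all 3 lists were ranked.

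Rfx2 also had peaks in its body. Their number was 4 in leptonema/zygonema, 5 in pachynema but 0 in diplonema. In leptonema/zygonema a pair of neighbouring intronic peaks about 17 kb into the gene scored 0.908 and 0.661, and another at 8.24 kb scored 0.677, each above the best promoter peak of 0.498. In pachynema the intronic peaks in the same places scored at most 0.507, level with the promoter at 0.508. Within 50 kb outside the gene the highest distal peak scored 1.227 in leptonema/zygonema, 0.847 in pachynema, with 0.779 in diplonema.

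**Figure D3:**
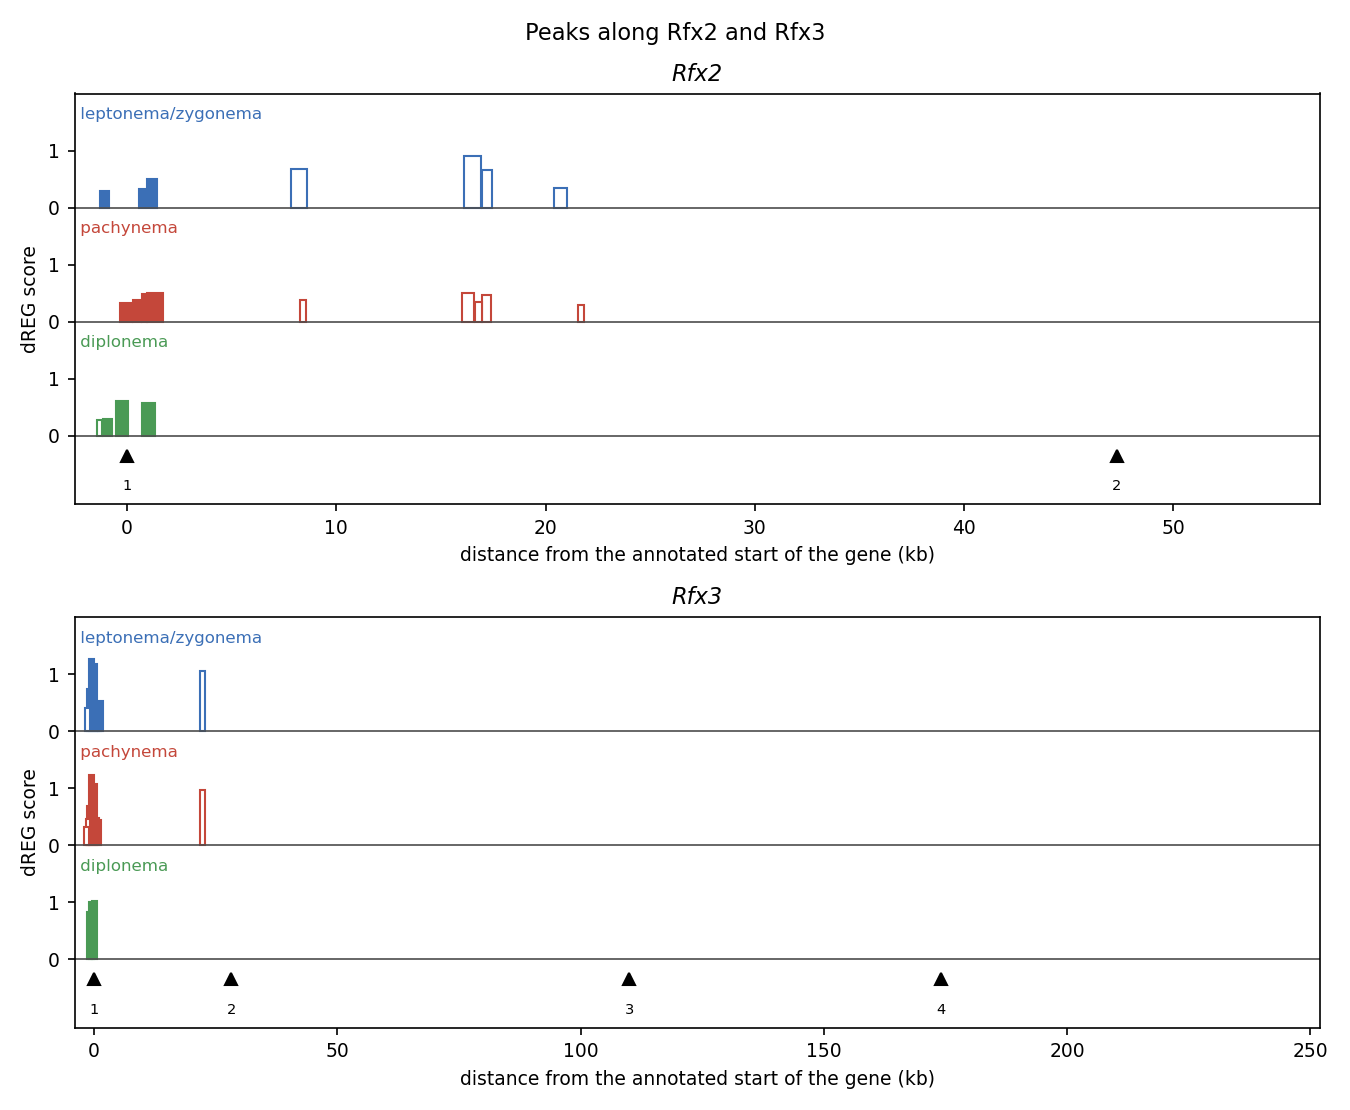
Peaks along Rfx2 and Rfx3 by distance from the annotated start of the gene (x axis, kb) and dREG score (y axis, 1 row per substage, each from 0). Filled bars are promoter peaks, open bars are gene-body peaks or peaks just beyond 1000 bp from the start, very short peaks are drawn at a minimum width, and numbered triangles are groups of annotated TSSs. Open bars within Rfx2 reach 0.908 in leptonema/zygonema and the one in Rfx3 1.058, and neither gene has one in its body in diplonema.

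Over all 10 genes, gene-body peaks numbered 9 in leptonema/zygonema, 11 in pachynema but 0 in diplonema. They lay in 5, 4 and 0 genes, while 26.1%, 24.2% and 13.3% of all protein-coding genes had such a peak. None overlapped an annotated exon, so all were intronic. Rfx2 and Rfx4 held most of them, and in Rfx3 a single narrow peak 22.3 kb into the gene scored 1.058 in leptonema/zygonema and 0.973 in pachynema. Rfx1 had 1 in leptonema/zygonema (0.358), and Atf1 1 in leptonema/zygonema (0.413) and 1 in pachynema (0.321). The diplonema list is the shortest. With lists of equal length 4, 1 and 0 body peaks were left, and the part of sequencing depth in their number was not tested.

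Rfx4, known for its role in the developing brain and for transcripts of the testis, had peaks at 2 separate promoters. The gene lies at chr10:84756062-84906538 on the plus strand with 4 promoter groups, that is, sets of TSSs joined when under 500 bp apart. The outermost start, at 84756062, had no peak, and neither had the start at 84834746. The start at 84762238, 6.18 kb into the gene and annotated for 2 transcripts of which 0 are protein coding, had a highest score of 1.301 in leptonema/zygonema, 1.254 in pachynema, with 0.639 in diplonema. The start at 84838148, 82.1 kb into the gene and annotated for 2 transcripts of which 1 is protein coding, had 0.328, 0.732 and 0.853.

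The order of these promoters was therefore opposite at the ends of the series. Among all peaks of their own list the upstream promoter stood at percentile 97, 96.7 and 61.9, and the internal one at percentile 8.94, 65.2 and 79.8. The number of peaks was 2, 3 and 2 upstream and 1, 2 and 4 at the internal start. In leptonema/zygonema the weak internal peak was not called with a score of at least 0.5 or with lists of equal length. When only TSSs of protein-coding transcripts were used, peaks were left at the internal start alone. The gene then stood higher in diplonema than in leptonema/zygonema, as the internal start did. With both promoters counted, the gene stood at percentile 91.3, 87.4 and 51.9. That was a change of -39.3 points from leptonema/zygonema to diplonema, and of -17.2 points among all peaks of the list. A further leptonema/zygonema peak 938 bp from the upstream start, with a score of 0.323, fell just inside the limit.

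The leading promoter group differed between leptonema/zygonema and diplonema in Rfx4 and Crem, 2 of the 7 members with more than 1 promoter group and a promoter peak in all lists. It differed in 690 of 7668 such genes, which is 9%. The sequences of the Rfx4 promoters are given because their order changed. They are 300 bases around the centre of the highest peak, at chr10:84761936-84762235 for the upstream promoter (leptonema/zygonema) and at chr10:84837881-84838180 for the internal one (diplonema), plus strand of mm10, 5′ to 3′. Capitals mark a match to the MYB sequence GGCNGTT, which in the internal window reads GGCAGTT and begins 53 bases before the TSS. The upstream window has no match to any of the sequences searched. A match in windows of this length around the highest pachynema peak was present in 14.7% of genes. These windows were chosen after the scores were seen, and around the highest pachynema peak of the internal promoter, which lies further downstream, there was no match. The GC content was 49.3% upstream and 41% at the internal promoter.
Rfx4 upstream promoter: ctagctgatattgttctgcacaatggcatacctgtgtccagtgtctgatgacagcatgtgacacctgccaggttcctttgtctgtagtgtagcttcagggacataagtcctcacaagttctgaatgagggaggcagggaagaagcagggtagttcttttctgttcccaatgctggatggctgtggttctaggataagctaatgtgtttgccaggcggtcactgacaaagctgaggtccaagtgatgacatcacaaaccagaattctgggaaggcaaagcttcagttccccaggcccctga
Rfx4 internal promoter: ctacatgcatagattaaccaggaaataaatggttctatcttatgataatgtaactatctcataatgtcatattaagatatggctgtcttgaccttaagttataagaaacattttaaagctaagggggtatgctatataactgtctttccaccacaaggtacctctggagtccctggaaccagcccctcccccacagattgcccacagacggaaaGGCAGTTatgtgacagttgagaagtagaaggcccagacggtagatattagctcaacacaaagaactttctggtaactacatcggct

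Crem, on the minus strand of chromosome 18, had the highest promoter score of the 10 genes in every list. Its best scores were 1.332, 1.333 and 1.229, at percentile 94.6, 96.6 and 96.5. It changed place by 1.93 points between leptonema/zygonema and pachynema and by 1.85 points between leptonema/zygonema and diplonema. The median absolute changes were 10.1 and 16.1 points over the genes with a promoter peak in all 3 lists. The gene spans 71.7 kb and 39 annotated transcripts, and 4 of its 7 promoter groups had a peak in all 3 lists, each peak being given to the group with the nearest TSS.

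The promoters inside Crem differed in how they stood in the 3 lists. The outermost promoter scored 1.311, 1.333 and 1.229, at percentile 97.3, 99 and 98.8 of all peaks of its list. The internal promoter 27.8 kb into the gene scored 1.332, 0.859 and 0.464, at percentile 98.1, 74.5 and 40.3. It was level with the outermost one in leptonema/zygonema, with 1.332 against 1.311, and the lowest of the 4 in diplonema. The promoter 56.6 kb into the gene scored 0.755, 1.074 and 0.877, at percentile 65, 87.1 and 81.4, and from pachynema on it ranked next to the outermost one. The promoter at 38.2 kb scored 0.765, 0.69 and 0.761, at percentile 65.8, 61.6 and 72.9. The groups at 10.2 and 12.3 kb had no peak, although all 6 transcripts annotated to the first of these are protein coding. The group at 56 kb was given none because the peaks within 1000 bp of it were nearer to the group at 56.6 kb. Peaks of the outermost promoter also lay under 1000 bp from a TSS of Gm6225.

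**Figure D4:**
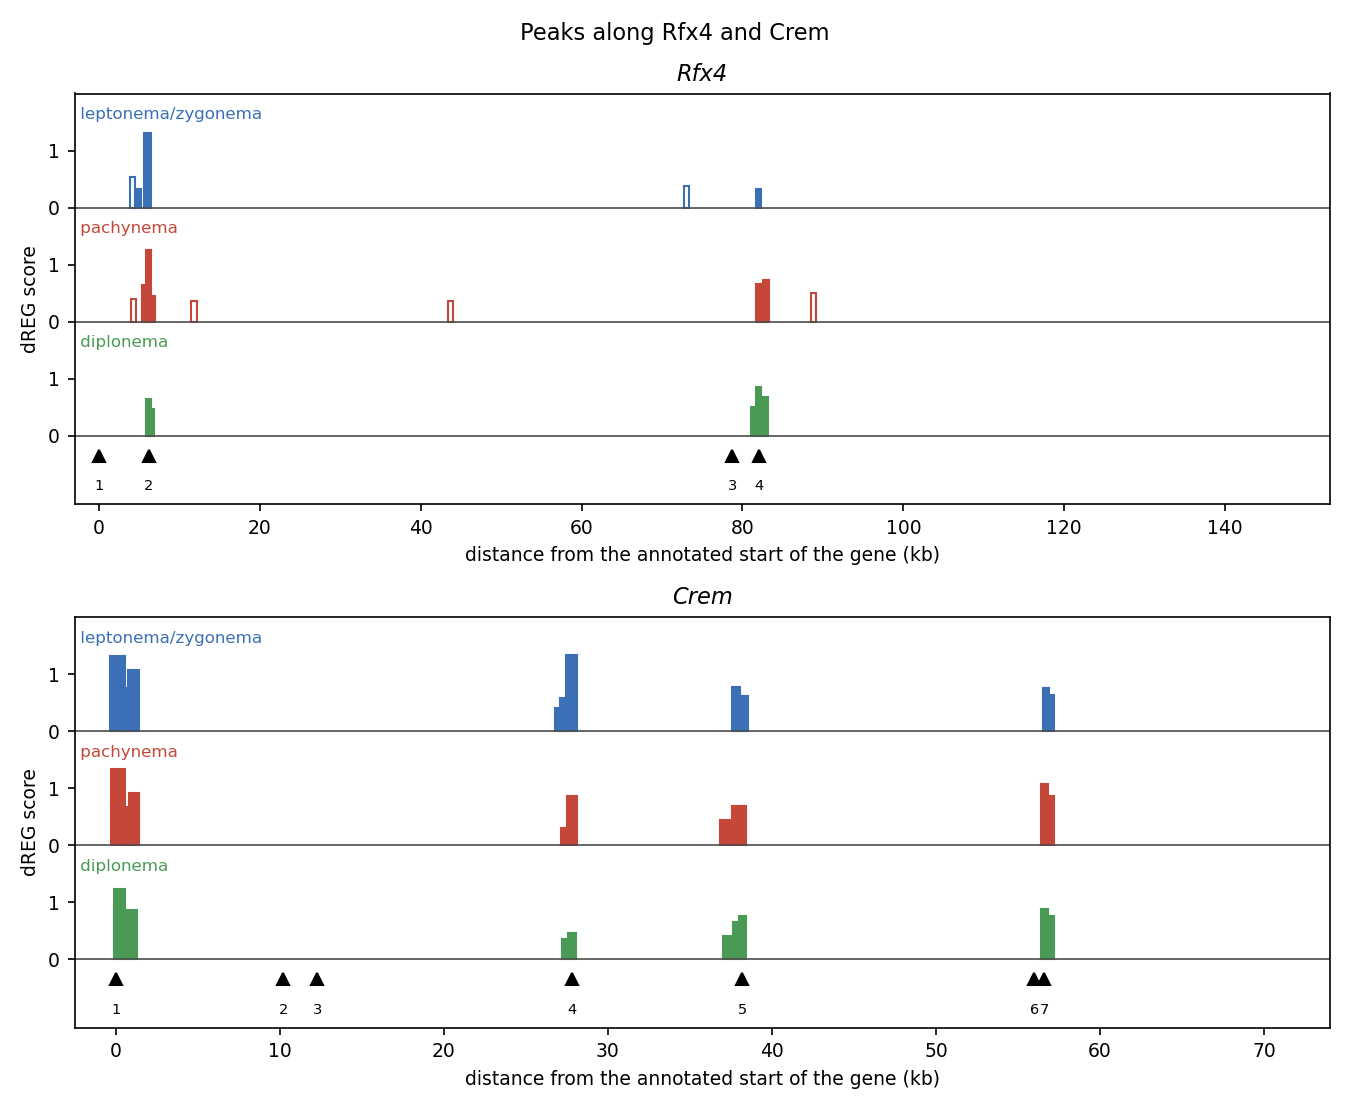
Peaks along Rfx4 and Crem by distance from the annotated start of the gene (x axis, kb) and dREG score (y axis, 1 row per substage, each from 0). Filled bars are promoter peaks, open bars are gene-body peaks, very short peaks are drawn at a minimum width, and numbered triangles are groups of annotated TSSs. In Rfx4 the bars at group 2 are the tallest in leptonema/zygonema and pachynema (1.301 and 1.254) and those at group 4 in diplonema (0.853), and in Crem the bar at group 4 is level with group 1 in leptonema/zygonema (1.332 and 1.311) and the lowest of the 4 groups with bars in diplonema (0.464).

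Creb1 and Atf1, the widely expressed relatives of Crem, each had peaks at a single promoter group, that of the gene start. Creb1 stood below Atf1 in leptonema/zygonema and pachynema and above it in diplonema. Creb1, at chr1:64532645-64604548 on the plus strand, had a highest promoter score of 0.991, 0.956 and 1.068. Its percentile was 43.1, 42.3 and 79.7, which is 36.6 points higher in diplonema than in leptonema/zygonema. Over all protein-coding genes it was at percentile 65.8, 65.1 and 89.5, and among all peaks of a list at 79.7, 80.5 and 93, a difference of 13.3 points. In leptonema/zygonema the peak over the start and one downstream were level, at 0.991 and 0.987. In pachynema a peak 517 bp downstream of the nearest TSS scored 0.956 against 0.903 over the start. In diplonema the peak over the start led, with 1.068 against 0.835 downstream. Atf1, at chr15:100227819-100261244 on the plus strand, scored 1.135, 1.213 and 0.878, at percentile 62.9, 79.7 and 54.8. Its peak over the start and the next one downstream were close in every list, at 1.127 and 1.135, 1.213 and 1.194, and 0.845 and 0.878.

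Creb1 was the member with a match to the MYB sequence GGCNGTT in both kinds of window. Around the highest pachynema peak 14.7% of genes had a match, and around the TSS 14.5%. At Creb1 the windows do not overlap, so they hold different sites. The peak window lies downstream of the TSS, at chr1:64533556-64533855, and its match reads GGCTGTT. The TSS window lies at chr1:64532644-64532943 on the plus strand of mm10, written 5′ to 3′ with the matches in capitals. They begin 241 and 119 bases before the TSS and read AACCGCC, the reverse complement of GGCGGTT, and GGCTGTT. The TSS window of Rfx2 also held 2 matches, both GGCCGTT. The full cAMP response element TGACGTNA was in no member's window of either kind. It was in 5.6% and 5.07% of the 13272 genes with a pachynema promoter peak. Its half-site TGACG, which every full element contains, was found in 5 of 9 members around the peak centre (33.1% of genes) and in 6 of 9 around the TSS (31.6% of genes). Around the peak centre it was in 3 of 9 members in windows of 200 bp (25.8% of genes) and in 0 of 9 in windows of 100 bp (14.8% of genes), and the Creb1 match to the MYB sequence was likewise outside the 100 bp window.
Creb1 TSS window: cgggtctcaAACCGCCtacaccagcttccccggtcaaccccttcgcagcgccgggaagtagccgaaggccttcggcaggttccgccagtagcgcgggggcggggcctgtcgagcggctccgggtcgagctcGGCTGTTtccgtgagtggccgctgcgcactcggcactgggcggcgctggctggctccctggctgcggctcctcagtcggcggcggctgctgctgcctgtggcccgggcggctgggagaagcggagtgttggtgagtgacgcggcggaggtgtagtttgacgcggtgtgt

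**Figure D5:**
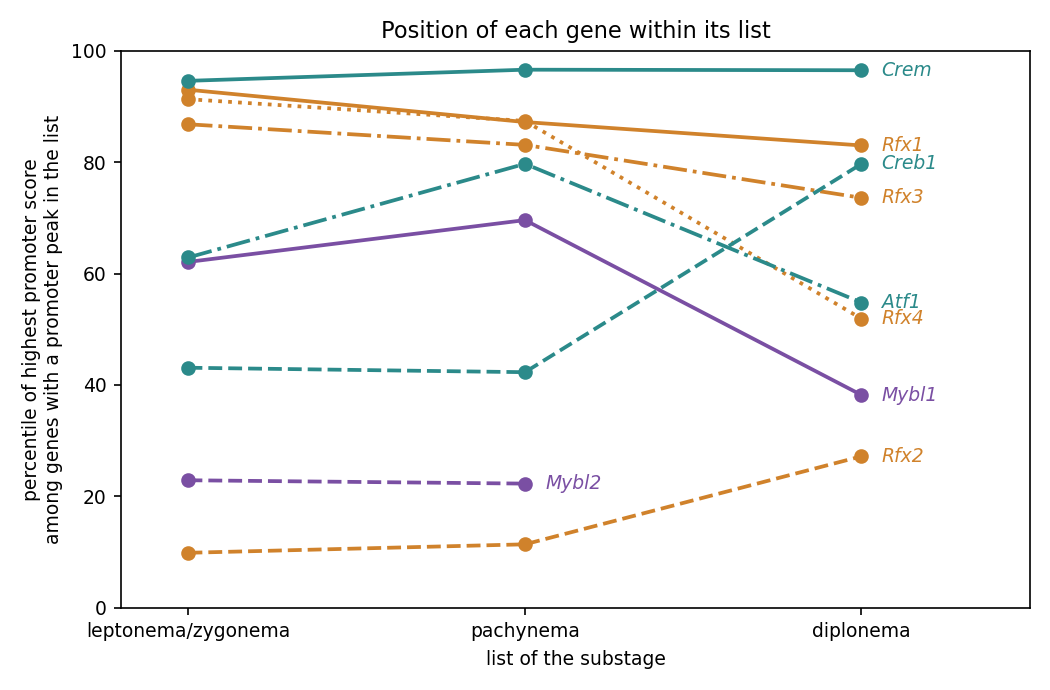
Percentile of the highest promoter score of each gene (y axis) in the list of each substage (x axis), among protein-coding genes with a promoter peak in that list. Lines join the values of 1 gene, in purple for MYB, orange for RFX and teal for CREM, CREB1 and ATF1. Crem stays between 94.6 and 96.6, Creb1 goes to 79.7 in diplonema, Rfx4 and Mybl1 go to 51.9 and 38.2, and Mybl2 ends in pachynema.

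For each member with a promoter peak in all 3 lists, the genes of the most similar percentiles were found among 10850 others, by the greatest difference in any list. For Mybl1 these were Dnal4 (1.67 points) and Dgkz (1.87 points), and for Crem Jagn1 (0.53 points) and Ica1 (0.613 points). Rfx4 was nearest to Dip2c (1.6 points) and 4933421I07Rik (2.17 points), and Creb1 to Cdkn2aip (1.29 points) and Pak1 (4.29 points). Rfx1 was nearest to Tpt1 (1.49 points) and Srsf3 (1.59 points), and Rfx2 to Sos2 (1.59 points) and Zfp874b (1.67 points). Rfx3 was nearest to Lmbr1l (1.48 points) and Gm28044 (1.71 points), and Atf1 to Fsd1l (1.73 points) and Daglb (1.94 points).

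Genes related to these factors were read in the same way. Of 11 genes of the MuvB and DREAM complexes, 10 had a promoter peak in leptonema/zygonema, 10 in pachynema but 8 in diplonema. Lin37, a MuvB subunit, had none, and E2f4 and Rbl2, which encode repressor subunits of DREAM, had none in diplonema. Their relatives E2f5 and Rbl1 had one there, with 0.373 and 0.536. Rbl2, which encodes p130, scored 1.378 in leptonema/zygonema (percentile 97.9) and 0.965 in pachynema (percentile 43.1), and E2f4 0.697 and 0.302. All 4 A-MYB and MYB cofactors had a promoter peak in each list. Tcfl5, which encodes a germ cell factor that works with A-MYB, scored 1.076, 1.161 and 1.107, at percentile 54, 70 and 84.7, and so stood higher in diplonema where Mybl1 stood lower. Mybbp1a, which encodes a MYB-binding protein, scored 1.205, 1.21 and 1.165.

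Of the 7 other RFX family and partner genes, all had a promoter peak in leptonema/zygonema and pachynema and 6 in diplonema, where Rfx6, a factor of pancreatic islet development, had none after 0.49 and 0.647. Rfxap, a subunit of the RFX complex of major histocompatibility class II genes, scored 1.152, 1.344 and 1.219, at percentile 66.1, 97.4 and 95.8, and was the highest of them in pachynema and diplonema. In leptonema/zygonema the highest was Foxj1, a regulator of motile cilia, with 1.255 (percentile 84.8). All 9 CREM and CREB cofactors had one in every list. Fhl5, which encodes the testis coactivator of CREM also called ACT, scored 1.277, 1.281 and 1.07, at percentile 88.1, 91.3 and 80. Crtc1, a coactivator of CREB1, went from percentile 99.8 (1.47) to 70 (1.161) and 10.4 (0.413). Of 13 other CREB and ATF genes, 12, 11 and 10 had a promoter peak. Creb3l3 had none, Atf4 had one in leptonema/zygonema only (0.509), Creb3l1 had none in diplonema after 0.383 and 0.359, and Atf2 scored 1.271, 1.174 and 1.083, the highest of them in leptonema/zygonema and pachynema. In diplonema the highest was Atf7, a close relative of Atf2, with 1.189 (percentile 93.3).

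The labelled cell type was read from marker genes. All 9 spermatocyte markers had a promoter peak in each list, with a median percentile of 59.2, 78.1 and 95.6. Among them Dmc1, Prdm9 and Spo11, genes of recombination, stood lower in diplonema than in leptonema/zygonema, at percentile 18.3 after 58.4, 38.6 after 59.2 and 54.1 after 58.9. Of 8 markers of late spermatocytes and round spermatids, 7 had one in each list, with Tnp2 at none and a median percentile of 73.1, 89.7 and 73.8. In leptonema/zygonema Ldhc stood at percentile 98.9, Acr at 93.6, Acrv1 at 93, Pgk2 at 73.1 and Tnp1 at 42, and Prm1 and Prm2, with the same highest score, at 19.6. Of 5 spermatogonial markers 4, 4 and 3 had one, with a median percentile of 39.5, 40.2 and 4.85, the last over 3 genes. In diplonema Kit stood at percentile 4.85 and Dmrt1 at 3.88, while Zbtb16 was at percentile 30.4, 33.6 and 33.7 in the order of substages. Of 5 Sertoli cell markers 2, 4 and 3 had one, at a median percentile of 20.7, 21.1 and 16.3, with Amh, a marker of immature Sertoli cells, at none. Gata4 scored 0.925, 0.946 and 0.482 and Sox9 0.385, 0.652 and 0.564, while Wt1 was called in pachynema (0.408) and diplonema (0.311) and Cldn11 in pachynema only (0.695). None of 4 Leydig cell markers and none of 3 blood cell markers had one in any list. The part of other cell types in the values of the 10 genes was not tested.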

How the data were processed

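leChRO-seq libraries, 4 for each of 3 substages, were processed by the authors. Duplicates sharing a molecular identifier were removed (PRINSEQ lite), adapters were cut off (cutadapt), and BWA placed the reads on mm10 with the ribosomal RNA repeat added. Libraries of a substage were merged before dREG (version not given in the sources used here) called peaks. The deposited lists give each peak a dREG score and a p-value, all under 0.05, with no statement of adjustment. A further column of positions was not used. The lists hold no read counts, so no interval on a score could be made.

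Here, peaks were assigned to GENCODE M21 TSSs on mm10 (edge under 1000 bp), TSSs of a gene under 500 bp apart were joined into promoter groups, and peaks were given to the group of the nearest TSS. Motifs were read on both strands in 300 bp windows of GRCm38, which is mm10. The distance rule, the joining of peaks and the motif scan were tested on simulated data and gave no wrong answer. The tools were samtools 1.23.1, pysam 0.24.0, Python 3.11.15 with pandas 2.3.3 and numpy 2.4.6, matplotlib 3.10.9, and scipy 1.17.1.

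All members were named. From the lists of related genes, those without a promoter peak in any list, those whose call differed between lists and the gene with the highest score of each list in any substage were named, as were the 2 genes nearest in percentile to each member. Fhl5, Tcfl5, Foxj1, Atf7, E2f5, Rbl1 and the single cell type markers were chosen after their values were seen. The members, lists and rules were chosen with earlier results of these data known. Alternatives were a higher score, a lower p-value, lists of equal length, joined peaks, other distances, other TSS sets and other windows. A Wilson interval at the 95% level, which covers the counting of genes only, set whether a percentile had moved.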

Additional observations from a re-analysis of the deposited data

How the results depend on the processing

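The number of members with a promoter peak stayed at 8 or 9 under each of the 7 alternatives run in each list. Where it dropped from 9 to 8 the gene lost was Rfx2. Lists of equal length were cut to the 38603 peaks of the diplonema list, so that alternative could change nothing in diplonema. Peak numbers moved more. Promoter peaks in leptonema/zygonema were 25 with lists of equal length, 16 with peaks within 100 bp joined and 16 when a peak had to cover the TSS, in place of 39. In pachynema they were 13 joined and 18 over the TSS, in place of 40, and in diplonema 15 joined and 16 over the TSS, in place of 36. Gene-body peaks in leptonema/zygonema were 5 at a score of at least 0.5 and 4 with lists of equal length, in place of 9, and in pachynema 3 and 1, in place of 11. Joining counts fewer, longer units, so the number of peaks per gene depends on how a promoter is split into peaks. Of the single-gene values under the alternatives, 13 highest scores moved and 89 did not, while 93 percentiles moved and 32 did not. Most percentile alternatives changed what was ranked: all peaks, all protein-coding genes, or genes with a promoter peak in all 3 lists. Cutting lists to equal length also removed genes from the ranking. The number of moved percentiles therefore mostly records a change of reference, not a change at the member genes. At Rfx4, with TSSs of protein-coding transcripts only, the highest score was 0.328 in leptonema/zygonema and 0.732 in pachynema. The diplonema score stayed at 0.853, and the gene stood higher there than in leptonema/zygonema, opposite to the main setting.

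No paired analysis was possible because the libraries of each substage were merged before peaks were called, which also left no replicate to leave out. The lists hold no read counts, so an absent peak, such as that of Mybl2 in diplonema, is not told apart from a peak below detection.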

Other observations

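The deposited p-value did not rank peaks as the score did. Peaks with a p-value of exactly 0 made up 29.4% of the leptonema/zygonema list, 27.8% of the pachynema list and 24.1% of the diplonema list. They fell mostly at the ends of the score range. In leptonema/zygonema 13457 of the 20914 such peaks had a score of at least 1, 606 a score from 0.5 to under 1, and 6851 a score under 0.5. In pachynema the numbers were 11381, 1132 and 6495 of 19008, and in diplonema 4062, 1370 and 3875 of 9307. All peaks with a score under 0.5 numbered 28244, 28044 and 17628 in the order of substages. Among the promoter and gene-body peaks of the 10 genes, some had a p-value of 0 with a score under 0.5. They were 7 of 48 in leptonema/zygonema, 7 of 51 in pachynema and 4 of 36 in diplonema. In the whole lists such peaks were 6851 of 71107, 6495 of 68352 and 3875 of 38603. One was the leptonema/zygonema peak at the internal Rfx4 start (score 0.328) and another the pachynema peak over the Rfx2 start (score 0.321). A limit on the p-value therefore keeps such peaks, while a limit on the score removes them.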
